A study of Homo sapiens with 8 samples.

Results

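The genes described here are 42 genes that build the mitotic spindle and the kinetochore, separate the chromosomes, divide the cell or drive it into mitosis. They were chosen by symbol from a named list, and all 42 were found among the 60617 genes of the deposited count table. All 42 also passed the filter on low counts, which left 17693 genes for testing. RNA sequencing of poly(A)-selected RNA was done in MCF-10A, an established human breast epithelial line that does not form tumours. The cells carried the labels Empty or NeuT, and each kind was either left untreated or given 1 µM JG-98, a small-molecule inhibitor of Hsp70 chaperones, for 12 h. The design text names the question as the drug sensitivity of transformed cells. The 4 groups were untreated Empty, Empty under JG-98, untreated NeuT and NeuT under JG-98, with 2 libraries each, and all were grown in the same serum-containing medium with epidermal growth factor, insulin, hydrocortisone and cholera toxin. The labels spell out neither what the NeuT cells carry nor whether Empty and NeuT are clones or pools. They also do not say whether the replicates came from separate cultures. The p-values rest on the spread between replicate libraries, pooled over all 4 groups, and that spread may be technical.

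Mitosis depends on a set of genes that are transcribed late in the cell cycle, mainly in G2 and M phase, so their RNA is widely read as a sign of cycling cells. Kinesin motors and the chromosomal passenger complex shape the spindle, the kinetochore holds each chromosome to it, and the spindle checkpoint restrains the anaphase-promoting complex until every chromosome is attached. Cyclin B with CDK1 starts mitosis, FOXM1 and the MuvB complex switch many of these genes on, and anillin, ECT2 and PRC1 then guide the cleavage furrow.

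Total counts were 55050996 to 56861971 in every library except replicate 1 of Empty under JG-98, which had 37341458. Levels below are CPM (the usual library-size-adjusted counts, per megaread), after scaling by TMM, a method that adjusts library sizes for differences in RNA composition. In 1 library, a count of 0 leaves room for 3 counts, or 0.0512 to 0.0787 CPM. The libraries were amplified and carry no molecular identifiers that the labels name, so that limit covers counting error only. All 9 breast epithelial markers were above 1 CPM, with a summed level of 18400 to 19000 CPM in Empty and 21600 to 22500 CPM in NeuT. Of these 9, 6 were called higher and 2 lower in untreated NeuT, where 21.2% of all genes tested were called higher and 20.8% lower. The leucocyte genes PTPRC and CD3E were at 0 or at most 0.0705 CPM in every library. The immune marker CD14 was at 5.01 to 6.92 CPM in Empty and 10.7 to 12.2 CPM in NeuT. It was called higher in untreated NeuT (log2 difference 0.80, edgeR adjusted p 4.12e-05). Of 5 immune markers 1 exceeded 1 CPM in any library (summed level 5.28 to 7.29 CPM in Empty and 10.9 to 12.4 CPM in NeuT), and of 4 endothelial markers 2 did (12.3 to 17.5 and 9.29 to 11.1 CPM). Of 6 fibroblast markers 2 did, with a summed level of 8.52 to 9.76 CPM in Empty and 68.4 to 83 CPM in NeuT. The higher sum in NeuT was that of DCN (decorin), at 2.47 to 3.58 CPM in Empty and 62.4 to 77.5 CPM in NeuT, while COL1A1 was at 4.7 to 5.83 CPM over all libraries and the other 4 stayed below 1 CPM. The part of these markers in the differences below was not tested. Over all genes tested, replicates were apart by a median of 0.081 in untreated Empty and 0.084 in untreated NeuT. Under JG-98 this gap was 0.11 in Empty and 0.129 in NeuT (absolute differences of log2(CPM + 0.5)). Within NeuT under JG-98, 37 of the 42 genes were higher in replicate 1 than in replicate 2, with a median gap of 0.18 on a scale of log2(CPM + 0.5). For the comparisons that use these 2 libraries, the median over the 42 genes and the count called by edgeR are given below with and without each of them, and other counts with both.

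The genes share promoter letters that their selection did not use. The RefSeq promoter table (build GRCh38.p14, 250 bases before to 50 bases after each start site) held 35 of the 42 genes, all except AURKA, BIRC5, FOXM1, KNL1, TPX2, TTK and UBE2C. Searched on both strands, TTTGAA, the core of the cell cycle homology region (CHR) to which MuvB complexes are known to bind, was present in 27 of 35 promoters (77.1%), against 15.2% of all 35116 promoters of the same length and 1 of 29 promoters (3.45%) of DNA replication genes. Counting only matches that began between 100 bases before and 50 bases after the start site, the shares were 71.4% and 6.84%. The variant TTCGAA was found in 5.71% and 1.45%. CCAAT, the box bound by NF-Y, was present in 28 of 35 promoters (80.0%), against 34.6% of all promoters and 58.6% of those of the replication genes. Both TTTGAA and CCAAT were present in 62.9% and 5.9%, and the motifs shared bases in 2 of the 35. The median first base of the TTTGAA matches lay at -26 from the start site, and that of the CCAAT matches at -67. A match is a description of the letters and not a measured binding site.

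The following stretches end at or before the start site and leave out every base that lies in an exon of the count table. They are shown because they cover large and small differences between the lines and the main arrangements of the motifs, and the capitals mark TTTGAA or its reverse TTCAAA, and CCAAT or its reverse ATTGG. Each is written 5′ to 3′ on the strand of its gene. The stretches are chr1:43358831-43358980 for CDC20 (plus strand), chr5:69167000-69167134 for CCNB1 (plus), chr15:59104996-59105125 for CCNB2 (plus), chr1:214603045-214603194 for CENPF (plus), chr2:110678064-110678213 for BUB1 (minus), chr10:128126424-128126573 for MKI67 (minus), chr12:53268149-53268298 for ESPL1 (plus) and chr10:60778181-60778330 for CDK1 (plus).
CDC20: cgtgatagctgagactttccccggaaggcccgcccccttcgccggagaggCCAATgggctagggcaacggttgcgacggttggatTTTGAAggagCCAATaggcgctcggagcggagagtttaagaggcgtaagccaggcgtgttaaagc
CCNB1: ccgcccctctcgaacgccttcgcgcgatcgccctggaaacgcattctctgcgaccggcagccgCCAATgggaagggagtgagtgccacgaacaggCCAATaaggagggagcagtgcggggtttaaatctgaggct
CCNB2: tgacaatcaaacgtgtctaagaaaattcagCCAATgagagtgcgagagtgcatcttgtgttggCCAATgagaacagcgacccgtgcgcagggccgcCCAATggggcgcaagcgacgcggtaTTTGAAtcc
CENPF: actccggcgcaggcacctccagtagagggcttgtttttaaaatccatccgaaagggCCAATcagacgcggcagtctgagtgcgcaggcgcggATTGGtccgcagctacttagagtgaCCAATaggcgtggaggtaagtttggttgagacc
BUB1: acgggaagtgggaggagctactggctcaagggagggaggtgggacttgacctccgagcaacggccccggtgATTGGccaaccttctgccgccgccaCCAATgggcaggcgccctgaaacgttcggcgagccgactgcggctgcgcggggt
MKI67: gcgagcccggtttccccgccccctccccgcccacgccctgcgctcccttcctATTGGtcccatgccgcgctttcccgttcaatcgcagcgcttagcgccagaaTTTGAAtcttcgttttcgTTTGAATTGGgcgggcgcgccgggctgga
ESPL1: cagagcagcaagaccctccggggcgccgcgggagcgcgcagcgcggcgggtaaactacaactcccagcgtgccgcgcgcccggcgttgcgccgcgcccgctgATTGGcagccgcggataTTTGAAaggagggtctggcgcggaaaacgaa
CDK1: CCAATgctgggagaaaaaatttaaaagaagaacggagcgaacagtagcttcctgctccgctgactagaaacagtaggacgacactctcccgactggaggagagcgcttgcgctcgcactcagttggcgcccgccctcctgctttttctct

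In these letters CDC20, CCNB2, MKI67 and ESPL1 have TTTGAA in front of the start site. In CDC20 it begins at -65, between a pair of CCAAT boxes, with a further match at -178 in front of the stretch shown, and in CCNB2 it begins at -29, behind CCAAT boxes at -120, -87 and -54. MKI67 has TTTGAA at -47 and at -29, and the latter runs into a reverse CCAAT box. CCNB1 and BUB1 have CCAAT boxes and no TTTGAA, BUB1 has 1 match to TTCGAA outside the stretch shown, CENPF has its TTTGAA behind the start site at 41, and CDK1 has its TTTGAA at -161, in front of the stretch shown. These 8 genes include some of the largest differences between the lines (CCNB1, CENPF) and one of the smallest (CDK1). Across the 35 genes, those with TTTGAA had a median log2 difference between untreated NeuT and untreated Empty of -1.30 (n = 27, from -2.09 to -0.48), and those without it had a median of -1.62 (n = 8, from -2.22 to -1.19), so the ranges overlapped. Those with CCAAT had a median of -1.46 (n = 28, from -2.22 to -0.48) and those without it a median of -1.30 (n = 7, from -1.53 to -1.07), again with overlap. TTCGAA was not counted as TTTGAA, so BUB1 is among the genes without TTTGAA. A single start site was used per gene. The windows of some genes lie inside the span of the counted gene, and AURKB, also without TTTGAA, is among them.

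**Figure D1:**
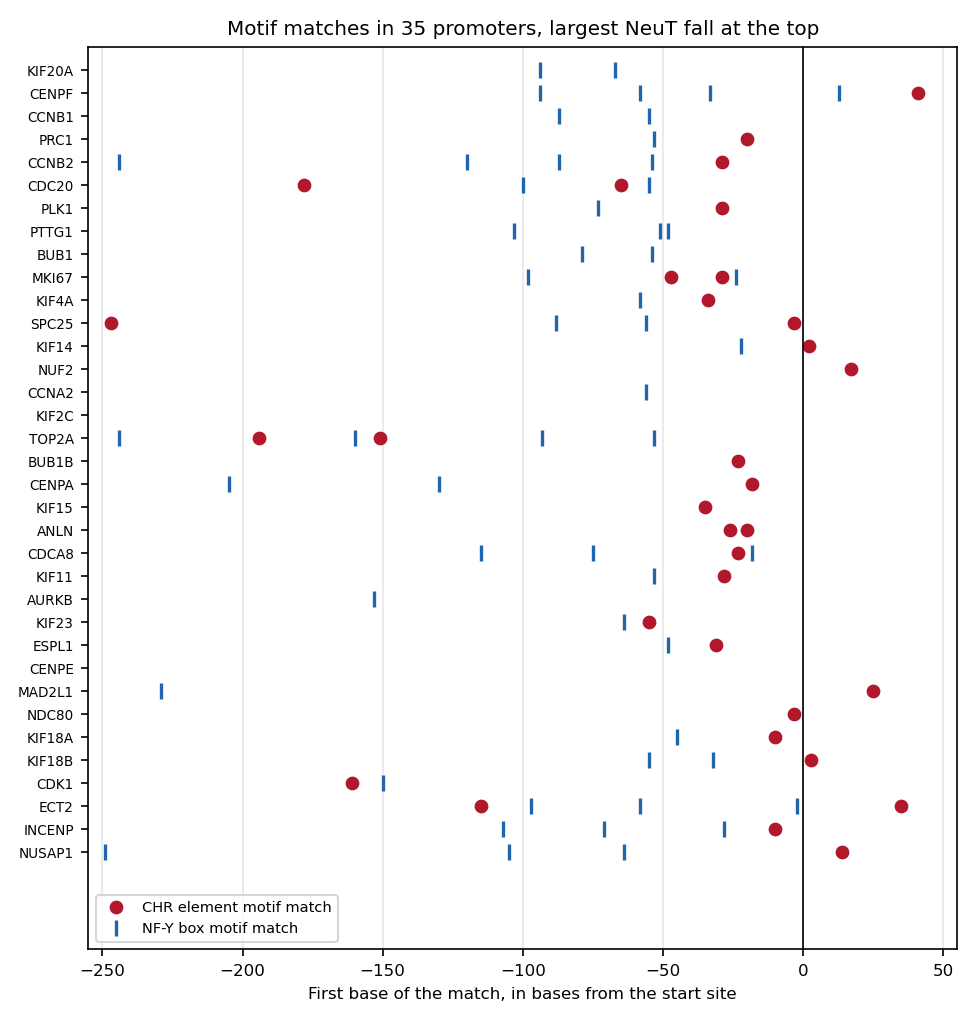
Position of each motif match in the 35 promoters of the RefSeq table, in bases from the start site on the horizontal axis, with genes ordered from the largest to the smallest fall in untreated NeuT. Circles mark the cell cycle homology region motif (first base at a median of -26) and bars the NF-Y motif (median of -67).

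Nearly all of these genes were lower in NeuT than in Empty cells, with and without the drug. Without treatment, 41 of 42 were called lower in NeuT and 0 higher (edgeR adjusted p under 0.05), where 20.8% of all 17693 genes were called lower. The median log2 difference was -1.36, against -0.02 over all genes tested, and DESeq2 and limma-voom called the same number. The exception was NUSAP1, at an adjusted p of 0.589. Both NeuT libraries lay below both Empty libraries for 41 of 42 genes, as they did for 37.1% of all genes tested. The fall was larger than 2-fold for 35 genes and larger than 4-fold for 3. Summed over all 42 genes, untreated Empty reached 4844 ± 22.5 CPM (SD, n = 2), and untreated NeuT reached 1743 ± 1.08 CPM (SD, n = 2), which is 36% of the former. In bulk RNA, fewer cells in the late cell cycle and less RNA per cell cannot be told apart.

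Under JG-98 the lines differed in the same direction. Again 41 genes were called lower in NeuT and 0 higher, where 20.0% of all genes were called lower, and the median log2 difference was -1.45. Both treated NeuT libraries lay below both treated Empty libraries for 41 genes and for 33.6% of all genes tested. Of the 42 genes, 39 differed by over 2-fold and 5 by over 4-fold. The summed level was 4626 ± 102 CPM (SD, n = 2) in Empty and 1537 ± 106 CPM (SD, n = 2) in NeuT. Without replicate 1 of NeuT under JG-98 the median was -1.53, and without replicate 2 it was -1.39.

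**Figure D2:**
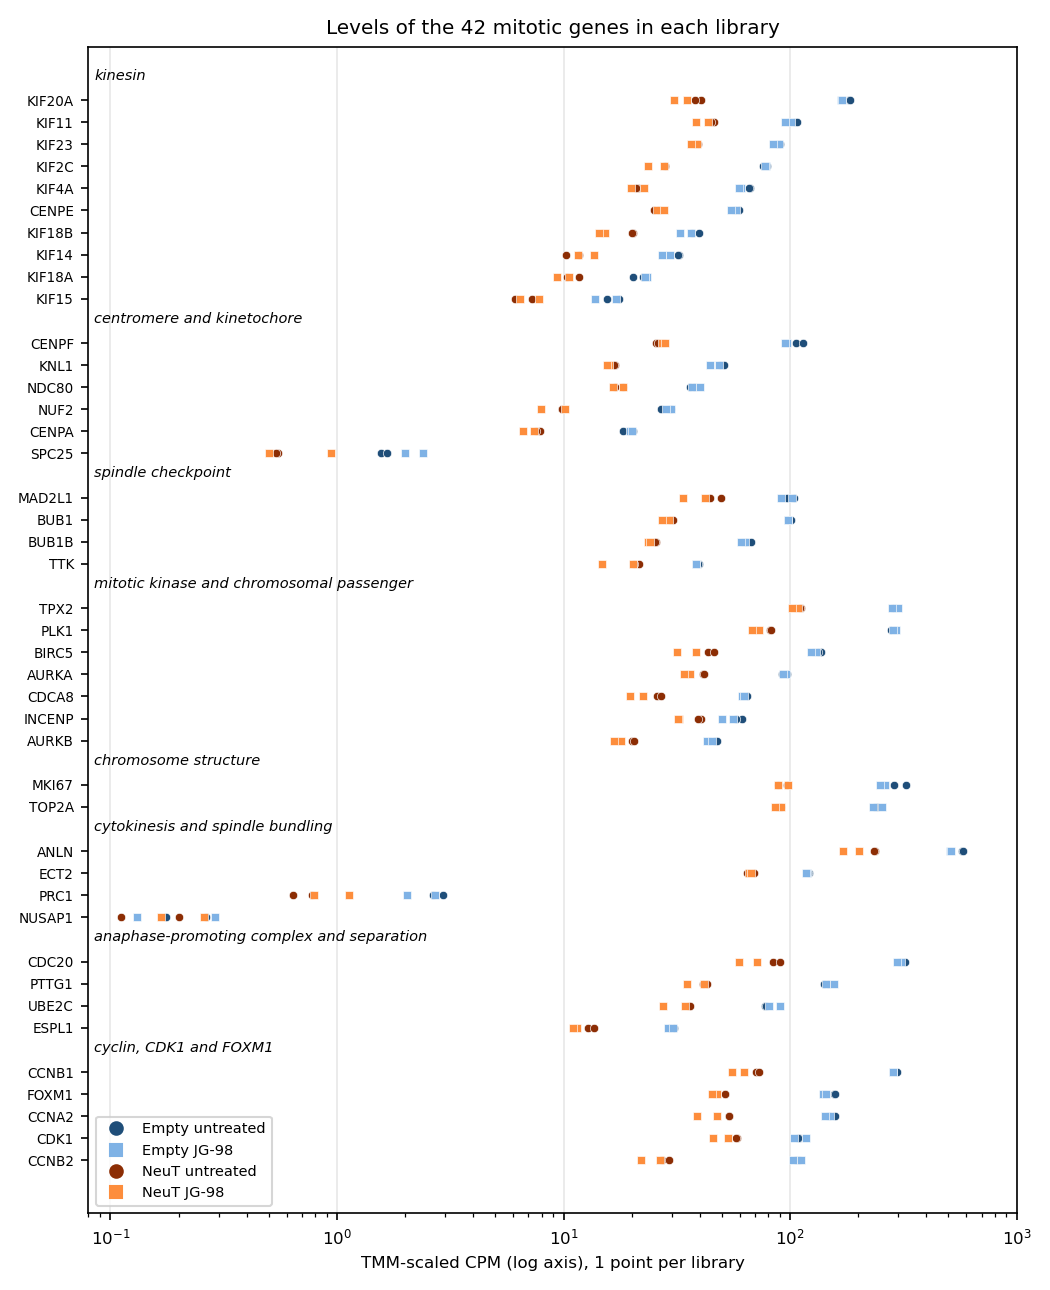
Level of each of the 42 genes in each of the 8 libraries, in TMM-scaled CPM on a log axis, with genes grouped by role and ordered by their level in untreated Empty. For 41 genes both NeuT points of a treatment lie to the left of both Empty points, and NUSAP1, at the bottom of its group, is the gene whose points mix.

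All 10 kinesin genes were called lower in untreated NeuT, with a median log2 difference of -1.27. KIF20A (ENSG00000112984, chromosome 5, 138178719 to 138187723), a motor of the central spindle that is needed for cytokinesis, had both the largest difference of all 42 genes and the highest level per length among the kinesins. It was at 182 and 185 CPM in untreated Empty, 168 and 169 CPM in Empty under JG-98, 40.6 and 38.0 CPM in untreated NeuT, and 35.1 and 30.9 CPM in NeuT under JG-98. The 4 NeuT values were far below the 4 Empty values, with no overlap. Its log2 difference was -2.22 (SE 0.0668, adjusted p 3.01e-13) without treatment, a NeuT level of 21.4% of that in Empty, and -2.35 (SE 0.0677, adjusted p 1.18e-13) under JG-98. KIF18B, a kinesin that shortens astral microtubules, had the smallest difference of the group. It was at 36.8 and 39.8 CPM in untreated Empty, 32.5 and 36.7 CPM in Empty under JG-98, 20.4 and 20.0 CPM in untreated NeuT, and 15.2 and 14.4 CPM in NeuT under JG-98. Here too the lines did not overlap, and its log2 difference without treatment was -0.92 (SE 0.0814, adjusted p 8.79e-08).

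The other kinesins lay between these. KIF4A, a motor that works on chromosome arms and the central spindle, differed by a log2 value of -1.65, KIF14 by -1.55 and KIF2C, which removes wrong microtubule attachments, by -1.47. KIF15 and KIF11, which push the spindle poles apart, differed by -1.30 and -1.23. KIF23, a subunit of centralspindlin, differed by -1.20, the kinetochore motor CENPE by -1.19 and KIF18A, which aligns chromosomes, by -0.95. KIF4A has a near copy in KIF4B, which matched 100% of its transcript at up to 95.3% identity, and reads could be split between them. The mean count was 2240 for KIF4A and 101.9 for KIF4B.

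The 6 centromere and kinetochore genes were all called lower, with a median log2 difference of -1.55. CENPF (ENSG00000117724, chromosome 1, 214603195 to 214664571), a large protein of the outer kinetochore, was at 106 and 114 CPM in untreated Empty, 97.3 and 95.4 CPM in Empty under JG-98, 25.5 and 26.1 CPM in untreated NeuT, and 27.3 and 27.9 CPM in NeuT under JG-98. The NeuT values formed a narrow low group, and the log2 difference was -2.09 (SE 0.0642, adjusted p 3.47e-13) without treatment and -1.80 (SE 0.064, adjusted p 1.27e-12) under JG-98. NDC80 (ENSG00000080986, chromosome 18, 2571557 to 2616635), which grips the microtubule, had the smallest difference of the group and its highest level per length. Its values were 37.6 and 36.3 CPM in untreated Empty, 40.0 and 37.0 CPM in Empty under JG-98, 18.4 and 16.9 CPM in untreated NeuT, and 18.3 and 16.6 CPM in NeuT under JG-98. The lines did not overlap, at a log2 difference of -1.07 (SE 0.081, adjusted p 1.31e-08). KNL1, the scaffold that recruits the checkpoint, differed by -1.58, NUF2, the partner of NDC80, by -1.53 and CENPA, the centromeric histone, by -1.32.

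SPC25, a further subunit of the NDC80 complex, differed by -1.57 (SE 0.304, adjusted p 0.000466), but it was counted 27 to 117 times per library. It was at 1.57 and 1.67 CPM in untreated Empty, 2.39 and 1.995 CPM in Empty under JG-98, 0.548 and 0.538 CPM in untreated NeuT, and 0.944 and 0.500 CPM in NeuT under JG-98. On the log2(CPM + 0.5) scale, which damps low levels, the replicates of NeuT under JG-98 differed by 0.53, the largest such gap among the 42 genes. SPIN3 on chromosome X matches 33.9% of its transcript at up to 96.0% identity, with a mean count of 317.1 against 66.12 for SPC25, so reads could be shared.

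The 4 spindle checkpoint genes were all called lower, with a median log2 difference of -1.23. BUB1 (ENSG00000169679, chromosome 2, 110637528 to 110678063), the kinase that marks kinetochores for the checkpoint, was at 101 and 98.3 CPM in untreated Empty, 97.8 and 98.1 CPM in Empty under JG-98, 29.4 and 30.3 CPM in untreated NeuT, and 29.3 and 27.1 CPM in NeuT under JG-98. Within each line these values were nearly level, and the log2 difference between the untreated lines was -1.74 (SE 0.0635, adjusted p 1.88e-12). TTK, the kinase that starts checkpoint signalling, had the smallest difference, -0.90 (SE 0.105, adjusted p 4.7e-06). Its values were 39.6 and 39.2 CPM in untreated Empty, 38.4 and 38.3 CPM in Empty under JG-98, 21.5 and 20.5 CPM in untreated NeuT, and 20.2 and 14.8 CPM in NeuT under JG-98. The last of these stands below the other NeuT values, and on the log2(CPM + 0.5) scale the replicates of NeuT under JG-98 differed by 0.43, the gap next in size to that of SPC25.

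MAD2L1, the checkpoint protein that binds CDC20, had the highest level per length of the checkpoint group. It was at 104 and 96.8 CPM in untreated Empty, 102 and 90.8 CPM in Empty under JG-98, 44.3 and 49.5 CPM in untreated NeuT, and 42.2 and 33.7 CPM in NeuT under JG-98. Its log2 difference was -1.10 (SE 0.0968, adjusted p 8.34e-07), with no overlap between the lines. BUB1B, the checkpoint inhibitor also called BUBR1, differed by -1.36.

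The 7 mitotic kinases and chromosomal passengers were all called lower, with a median log2 difference of -1.25. PLK1 (ENSG00000166851, chromosome 16, 23677656 to 23690367), a kinase that acts from mitotic entry to cytokinesis, was at 288 and 280 CPM in untreated Empty, 292 and 284 CPM in Empty under JG-98, 81.6 and 82.5 CPM in untreated NeuT, and 73.0 and 68.0 CPM in NeuT under JG-98. Its log2 difference was -1.79 (SE 0.0565, adjusted p 4.38e-13) without treatment and -2.03 (SE 0.0571, adjusted p 9.14e-14) under JG-98. TPX2, which activates AURKA on the spindle, had the highest level per length of this group. Its values were 286 and 288 CPM in untreated Empty, 299 and 283 CPM in Empty under JG-98, 112 and 110 CPM in untreated NeuT, and 109 and 102 CPM in NeuT under JG-98, and it differed by -1.37 (SE 0.0555, adjusted p 6.48e-12). Neither gene's lines overlapped.

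INCENP, the scaffold of the chromosomal passenger complex, had the smallest difference among the 41 genes called. It was at 61.6 and 57.8 CPM in untreated Empty, 50.1 and 56.3 CPM in Empty under JG-98, 40.4 and 39.3 CPM in untreated NeuT, and 32.2 and 32.1 CPM in NeuT under JG-98. The lines still did not overlap, at a log2 difference of -0.58 (SE 0.0704, adjusted p 3.68e-06). Its partners in the complex differed by more, the kinase AURKB by -1.21, CDCA8 (borealin) by -1.25 and BIRC5 (survivin) by -1.59. AURKA, the centrosomal kinase, differed by -1.19.

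Both genes of chromosome structure were called lower. MKI67 (ENSG00000148773, chromosome 10, 128096659 to 128126423), which coats mitotic chromosomes and is the gene of the Ki-67 proliferation marker, was at 286 and 325 CPM in untreated Empty, 261 and 249 CPM in Empty under JG-98, 96.4 and 88.2 CPM in untreated NeuT, and 88.1 and 98.3 CPM in NeuT under JG-98. The replicates of untreated Empty were apart by -0.18 on the log2(CPM + 0.5) scale, and the lines differed by -1.73 (SE 0.0729, adjusted p 1.58e-11). TOP2A, which untangles sister DNA, was at 236 and 241 CPM in untreated Empty, 254 and 233 CPM in Empty under JG-98, 88.4 and 91.4 CPM in untreated NeuT, and 91.6 and 86.1 CPM in NeuT under JG-98. Its log2 difference was -1.41 (SE 0.0597, adjusted p 1.01e-11), and within each line 1 treated library lay above both untreated ones and the other below both.

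Of the 4 genes of cytokinesis and spindle bundling, 3 were called lower. ANLN, the anillin that scaffolds the contractile ring, had the highest CPM of all 42 genes. It was at 576 and 582 CPM in untreated Empty, 511 and 511 CPM in Empty under JG-98, 238 and 235 CPM in untreated NeuT, and 202 and 171 CPM in NeuT under JG-98, a log2 difference between untreated lines of -1.29 (SE 0.0658, adjusted p 1.01e-10). ECT2, which activates RhoA at the furrow, differed by -0.86.

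The remaining 2 members of that group were barely counted. PRC1, which bundles the central spindle, was at 2.92 and 2.65 CPM in untreated Empty, 2.70 and 2.03 CPM in Empty under JG-98, 0.640 and 0.779 CPM in untreated NeuT, and 1.13 and 0.796 CPM in NeuT under JG-98. Its log2 difference was -1.97 (SE 0.262, adjusted p 1.08e-05), on 35 to 166 counts per library. NUSAP1, a spindle microtubule binder, was at 0.176 and 0.263 CPM in untreated Empty, 0.131 and 0.290 CPM in Empty under JG-98, 0.201 and 0.111 CPM in untreated NeuT, and 0.259 and 0.167 CPM in NeuT under JG-98. These values rest on 5 to 17 counts and overlap throughout, at a log2 difference of -0.48 (SE 0.649, adjusted p 0.589). In the count table, other gene models cover 81.4% of the exonic bases of NUSAP1 and 61.9% of those of PRC1, the largest shares among the 42 genes, and the next was 15.9% for FOXM1 with ITFG2. The model that covers most of NUSAP1 had a mean count of 0, against 10.88 for NUSAP1. The main one for PRC1, which covers 57.6%, had a mean count of 50.25, against 90.0 for PRC1. How reads in shared exons were counted is not given in the sources used here, and the part of this overlap in the low counts was not tested.

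The 4 genes of the anaphase-promoting complex and of chromosome separation were called lower, with a median log2 difference of -1.48. CDC20 (ENSG00000117399, chromosome 1, 43358981 to 43363203), the activator of the complex in mitosis, had the highest level per length of all 42 genes in both untreated lines, 156 CPM per kilobase in Empty and 43.2 in NeuT. It was at 322 and 306 CPM in untreated Empty, 310 and 295 CPM in Empty under JG-98, 83.8 and 90.0 CPM in untreated NeuT, and 71.5 and 59.5 CPM in NeuT under JG-98. The difference was -1.86 (SE 0.0752, adjusted p 1.71e-11) without treatment and -2.21 (SE 0.0766, adjusted p 3.16e-12) under JG-98. The pseudogene CDC20P1 matches 84.6% of its transcript at up to 96.3% identity, with a mean count of 339.1 against 10170 for CDC20, so some reads could be shared.

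UBE2C, the ubiquitin-conjugating enzyme of the complex, had the smallest difference of that group. It was at 77.8 and 78.5 CPM in untreated Empty, 90.4 and 80.7 CPM in Empty under JG-98, 35.7 and 36.1 CPM in untreated NeuT, and 34.4 and 27.6 CPM in NeuT under JG-98, and differed by -1.12 (SE 0.0872, adjusted p 4.15e-08). PTTG1 (securin), which holds separase inactive, differed by -1.77 and ESPL1 (separase), which cuts cohesin, by -1.19.

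The 5 cyclin, CDK1 and FOXM1 genes were called lower, with a median log2 difference of -1.60. CCNB1 (ENSG00000134057, chromosome 5, 69167135 to 69178245), the cyclin that activates CDK1 for mitotic entry, was at 290 and 296 CPM in untreated Empty, 284 and 285 CPM in Empty under JG-98, 71.1 and 73.0 CPM in untreated NeuT, and 62.9 and 55.6 CPM in NeuT under JG-98. It differed by -2.02 (SE 0.062, adjusted p 3.47e-13) without treatment and -2.26 (SE 0.0628, adjusted p 8.1e-14) under JG-98. CDK1 itself (ENSG00000170312, chromosome 10, 60778331 to 60794852) was at 109 and 108 CPM in untreated Empty, 118 and 104 CPM in Empty under JG-98, 58.3 and 57.7 CPM in untreated NeuT, and 53.4 and 45.9 CPM in NeuT under JG-98. Its difference of -0.91 (SE 0.0749, adjusted p 4.61e-08) was the smallest of the group. CCNB2 differed by -1.94, the transcription factor FOXM1 by -1.60 and CCNA2, the cyclin of S phase and G2, by -1.51.

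**Figure D3:**
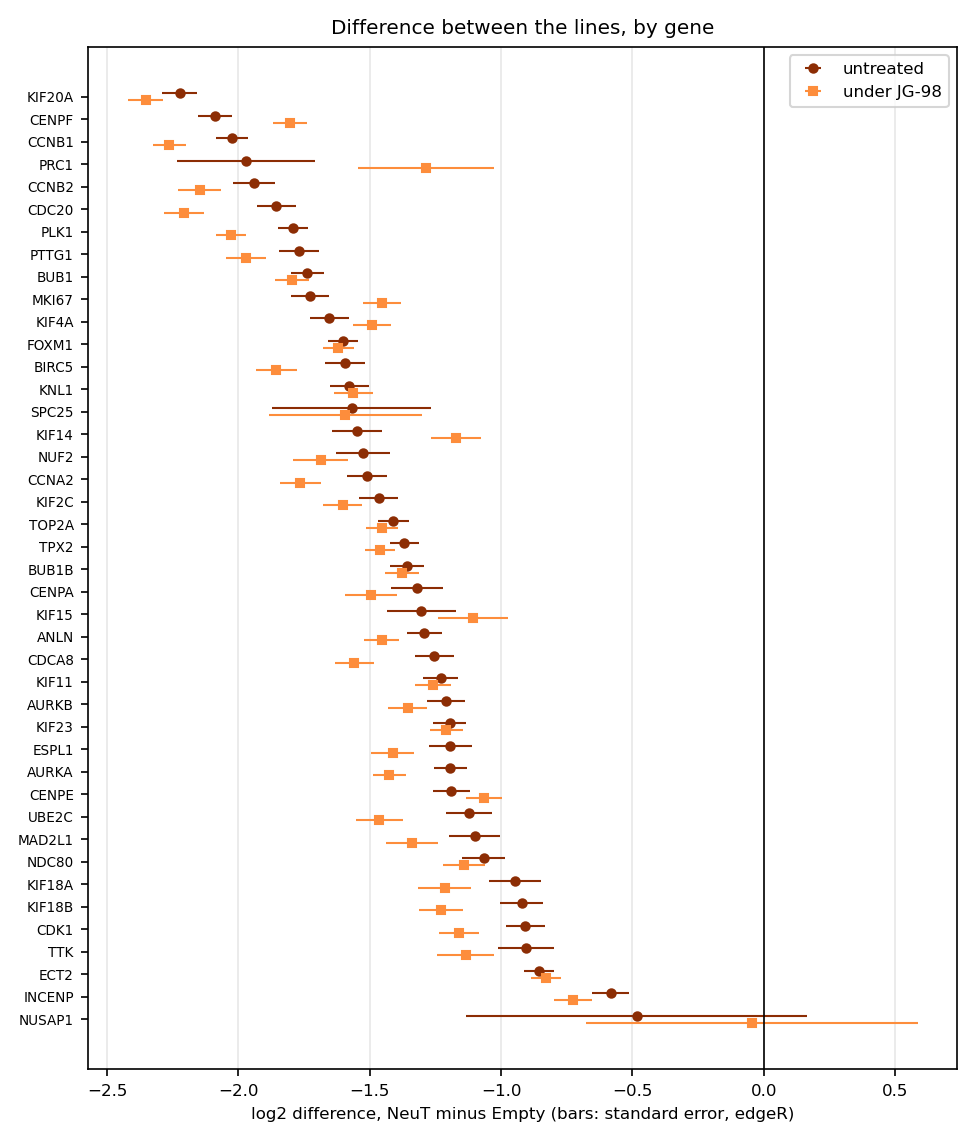
Log2 difference between NeuT and Empty for each gene, untreated (circles) and under JG-98 (squares), with the standard error derived from the edgeR test as bars. All points except those of NUSAP1, whose bars cross 0, lie below -0.5, and KIF20A is the lowest in both series at -2.22 and -2.35.

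Partners of known complexes differed by unequal amounts, which shows in the ratio of their levels per length. The ratio of CCNB1 to CDK1 was 3.89 to 4.42 over the 4 Empty libraries and 1.9 to 2.04 over the 4 NeuT libraries. For CCNA2 and CDK1 it was 1.78 to 2.02 and 1.19 to 1.31. Neither ratio overlapped between the lines. Within the chromosomal passenger complex the ratio of INCENP to AURKB was higher in NeuT, 0.904 to 1.01 against 0.584 to 0.667, whereas that of BIRC5 to AURKB was lower, 1.12 to 1.32 against 1.61 to 1.78. For CDCA8 and AURKB the ranges were 1.1 to 1.22 in NeuT and 1.24 to 1.32 in Empty, which nearly touch. In the NDC80 complex the ratio of NUF2 to NDC80 was 0.51 to 0.617 in NeuT and 0.787 to 0.838 in Empty, and that of SPC25 to NDC80 overlapped between the lines. These ratios are descriptions and were not tested. They were not worked out for other pairs of genes, so no share of pairs without overlap stands beside them.

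Other genes of the same machinery were lower in untreated NeuT as well, by less on the median. Of 29 other kinetochore and centromere genes tested, 25 were called lower and 0 higher, with a median log2 difference of -0.74. CENPW and CENPM, subunits of the inner kinetochore, had the largest differences (-1.66 and -1.32), and PMF1 and CENPT had the smallest (-0.03 and 0.05), neither of them called. Of 32 other spindle, checkpoint and cytokinesis genes, 31 were called lower, with a median of -1.12. DLGAP5, a spindle microtubule binder, and PBK, a mitotic kinase, led these with -2.14 and -1.88, BUB3, the checkpoint partner of BUB1, differed by -0.16, and KIFC1, which was not called, had a mean of 0.114 CPM in untreated Empty and 0.348 CPM in untreated NeuT (log2 difference 1.59, SE 0.716, adjusted p 0.0862).

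All 16 condensin and cohesin genes were called lower, with a median of -0.55. The condensin subunits NCAPG2 and SMC4 had the largest differences (-1.53 and -1.44), and the cohesin regulators PDS5A and WAPL had the smallest (-0.26 and -0.21). All 32 DNA replication genes were called lower, with a median of -0.75, from -1.30 for TYMS and -1.23 for ORC1 to -0.35 for GINS1 and -0.29 for PRIM2. The core of the anaphase-promoting complex differed least, with a median of -0.07 over 16 genes, of which 6 were called lower and 2 higher, where 21.2% of all genes were called higher. UBE2S, the chain-extending enzyme of the complex, was at -0.92 and ANAPC15 at -0.38, and CDC16 and ANAPC13 were at 0.20 and 0.60. Among 20 MuvB, DREAM and E2F factors 13 were called lower and 2 higher (E2F4 and the NF-Y subunit NFYC), with a median of -0.35, from -1.44 for MYBL2, which joins MuvB to activate mitotic genes, and -1.20 for E2F2 to 0.29 for E2F4 and 0.56 for LIN37, the last at an adjusted p of 0.0645.

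**Figure D4:**
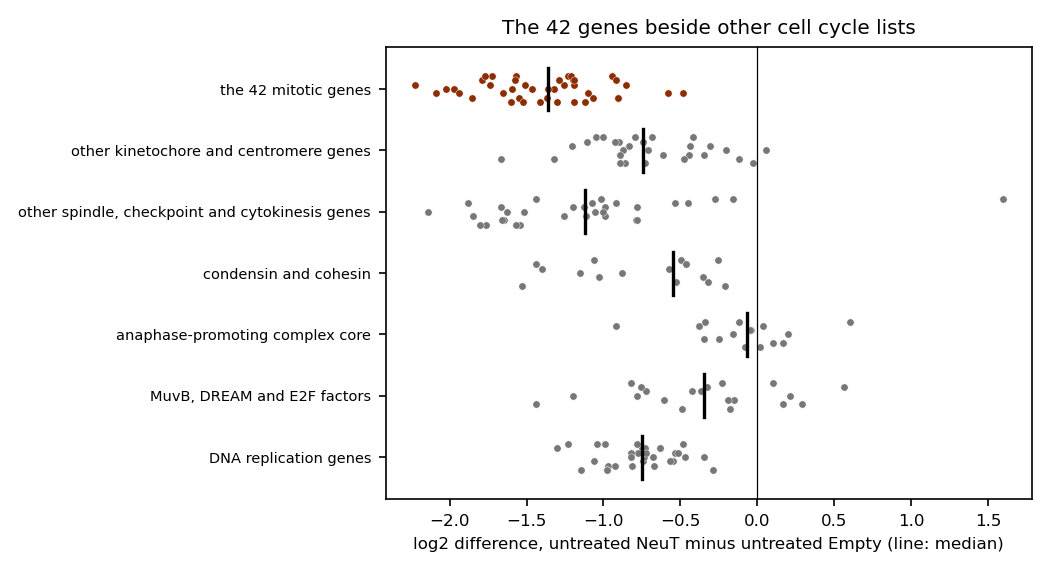
Log2 difference between untreated NeuT and untreated Empty for each of the 42 genes and for the tested genes of 6 other cell cycle lists, 1 point per gene, with the median as a bar. The median is -1.36 for the 42 genes and lies between -1.12 and -0.07 for the other lists.

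JG-98 was followed by little change of these genes in Empty cells. In the comparison of treated and untreated Empty, edgeR called 0 of 42 genes, where 0.339% of all genes were called in either direction and 0.0791% were called lower. At an unadjusted p under 0.05 there were 5, all of them lower (CENPF, INCENP, MKI67, ANLN and FOXM1), where 9.83% of all genes reached that p in either direction, and DESeq2 and limma-voom called 0. The median log2 change was -0.04, and the largest decrease was that of MKI67, -0.26 (SE 0.0704, adjusted p 0.174, 95% interval -0.41 to -0.11). Both treated libraries lay below both untreated ones for 18 of the 42 genes and for 22.2% of all genes tested. The summed level under JG-98 was 95.5% of that in untreated Empty. A fit of only the 4 Empty libraries called 1 of the 42 genes, MKI67, and 205 of all 16813.

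In NeuT cells, 9 of the 42 genes were called lower after JG-98 and 0 higher, where 1.01% of all genes were called lower. The median log2 change was -0.14, against 0 over all genes tested, and it was -0.25 without replicate 1 of NeuT under JG-98 and -0.07 without replicate 2. Both treated libraries lay below both untreated ones for 26 of the 42 genes and for 22.9% of all genes tested. All changes were small. The 9 genes were the kinesin KIF18B, PLK1, the passengers CDCA8, BIRC5 and INCENP, ANLN, CDC20 and the cyclins CCNA2 and CCNB1, and for none of them did treated and untreated NeuT libraries overlap. Values per library of KIF18B, PLK1, INCENP, ANLN, CDC20 and CCNB1 are given above.

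The largest of these falls were those of KIF18B, -0.45 on the log2 scale (SE 0.0849, adjusted p 0.00691), and CDC20, -0.41 (SE 0.075, adjusted p 0.00661). BIRC5 fell from 43.5 and 46.1 CPM to 38.5 and 31.8 CPM, a log2 change of -0.35 (SE 0.0783, adjusted p 0.0218). ANLN fell by 0.34 (SE 0.0654, adjusted p 0.00723), a level 1.27-fold lower. CDCA8 fell from 25.9 and 27.0 CPM to 22.5 and 19.6 CPM, a change of -0.33 (SE 0.0757, adjusted p 0.0248). CCNA2 fell from 53.5 and 53.8 CPM to 47.4 and 38.8 CPM, a change of -0.32 (SE 0.0776, adjusted p 0.0346). In both of the latter the second treated library was the lower. INCENP, whose treated libraries were nearly equal, fell by 0.31 (SE 0.0718, adjusted p 0.0253), CCNB1 by 0.28 (SE 0.0617, adjusted p 0.0184) and PLK1 by 0.22 (SE 0.0562, adjusted p 0.0441).

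None of the 6 centromere and kinetochore genes, the 4 checkpoint genes or the 2 genes of chromosome structure was called after JG-98 in NeuT by edgeR with all libraries, the filter on low counts and no block for replicates. Without that filter MAD2L1 was called, and without replicate 1 of NeuT under JG-98 MAD2L1 and TTK were called. At an unadjusted p under 0.05 the count was 20 of 42 genes, all lower, where 16% of all genes reached that p in either direction, and it took in MAD2L1 and TTK among the checkpoint genes. DESeq2 called 12 of the 42 genes, MAD2L1 among them, and 732 of all 17693. Limma-voom called 7 of the 42 and 504 of all. In the 32 DNA replication genes the median log2 change was -0.26, with 12 called lower and 0 higher.

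The count of 9 moved with single libraries. It was 21 without replicate 1 of NeuT under JG-98 and 4 without replicate 2 (KIF18B, INCENP, ANLN and CDC20). The count over all genes, in either direction, moved as well, from 533 of 17693 with all libraries to 2133 of 18667 without replicate 1 and 367 of 18702 without replicate 2. With either untreated NeuT library left out it was 1 (CDC20, without replicate 1) or 0 (without replicate 2), with 132 of 18695 and 143 of 18673 genes called in all. With either untreated Empty library left out it was 5, with 343 and 344 genes called in all. A fit of only the 4 NeuT libraries called 1 of the 42 genes, KIF18B, and 185 of all 16682. Against the mean of the untreated NeuT libraries, the 42 genes had a median of -0.06 in treated replicate 1 and -0.24 in treated replicate 2, on a scale of log2(CPM + 0.5).

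**Figure D5:**
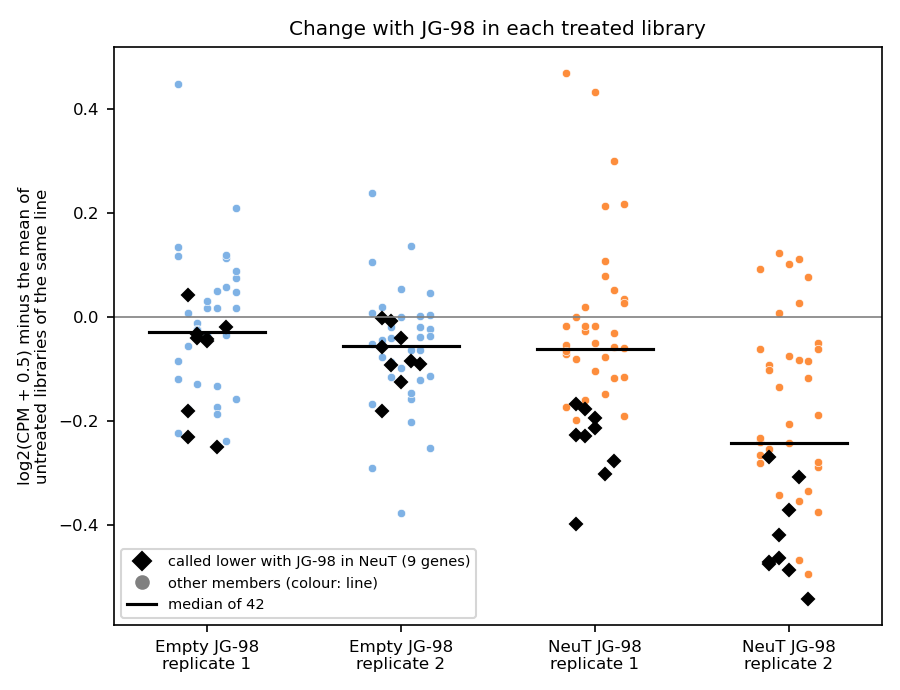
Change of each gene in each treated library against the mean of the untreated libraries of the same line, on a scale of log2(CPM + 0.5), 1 point per gene, with the median of the 42 genes as a line. The medians are -0.03 and -0.06 in Empty and -0.06 and -0.24 in NeuT, and diamonds mark the 9 genes called lower in NeuT, which lie below 0 in both NeuT libraries.

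The difference between the 2 drug responses was tested directly. The interaction of line and drug called 0 of the 42 genes in edgeR, where 0.00565% of all genes were called, and 0 in DESeq2 and in limma-voom. At an unadjusted p under 0.05 there were 13, of which 10 were lower and 3 higher, where 7.79% of all genes reached that p. The 3 higher ones were CENPF, KIF14 and MKI67. CDC20 had the lowest p of the 42, with a difference of -0.35 between the responses (SE 0.104, adjusted p 0.49). The median difference was -0.14. Without replicate 1 of NeuT under JG-98 the median was -0.245, and the interaction called 13 of the 42 genes, all lower, and 777 of all 18667. Without replicate 2 the median was -0.05, and it called 0 of the 42 and 15 of all 18702.

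Averaged over both lines, 7 of the 42 genes were called lower under JG-98 and 0 higher, where 1.58% of all genes were called lower. They were ANLN, with a change of -0.26 (SE 0.0459, adjusted p 0.00299), KIF18B at -0.30 (SE 0.0582, adjusted p 0.00698), INCENP at -0.24 (SE 0.0501, adjusted p 0.0116), CDC20 at -0.23 (SE 0.052, adjusted p 0.0194), KIF20A at -0.19 (SE 0.046, adjusted p 0.0286), BIRC5 at -0.22 (SE 0.0538, adjusted p 0.0303) and CCNB1 at -0.16 (SE 0.0426, adjusted p 0.0423). The same libraries enter this average and the comparison within NeuT, so the lists are not independent. Of the 7, only KIF20A was not called in NeuT alone, at an adjusted p of 0.0546. The median change was -0.09, and it was -0.12 without replicate 1 of NeuT under JG-98 and -0.05 without replicate 2. The count was 18 without replicate 1 of NeuT under JG-98 (1934 of all genes, against 702 with all libraries), and 7 without replicate 2 (938 of all genes). It was 1 (ANLN) without replicate 1 of Empty under JG-98 (317 of all genes) and 3 without replicate 2 of that group (507 of all genes). Leaving out any 1 of the 4 untreated libraries gave 2, with 259 to 297 genes called in all.

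In the authors' deposited table for Empty, 0 of the 42 genes and 48 of all 17698 had an adjusted p under 0.05, and the lowest of the 42 was 0.132. In the authors' deposited table for NeuT, 7 of the 42 genes and 525 of all 17698 did, the lowest adjusted p of the 42 was 0.0105, and the median log2 fold change was -0.15.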

How the data were processed

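RNA was sequenced in 8 MCF-10A libraries, 2 for each of 4 groups. Per the submitters' processing notes, the authors used Trim Galore 0.5.0, FastQC 0.11.7, HISAT2 2.1.0, SAMtools 1.9, featureCounts 1.6.3 and limma with GRCh38. The annotation release, strand setting and treatment of reads that match several genes are not given in the sources used here. The deposited table holds raw counts per gene. The authors' deposited comparison tables hold log2 fold changes, p-values and a score per gene, and only the first pair of these was used.

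Counts were tested with edgeR 4.0.16 in R 4.3.3 (quasi-likelihood test, robust, TMM scaling, 1 coefficient per group over all 8 libraries). Genes were kept by filterByExpr with a minimum count of 10 and a minimum total of 15, and Benjamini-Hochberg adjustment ran over all 17693 genes kept. A gene was called at an adjusted p under 0.05. With 2 libraries against 2, no exact permutation test of a single gene can reach 0.05. DESeq2 1.42.0, limma 3.58.1 (voom), other scalings and filters, a stricter threshold, a replicate block and fits without each library were alternatives. A crossed block and a fit without replicate 1 of Empty under JG-98 and replicate 2 of NeuT under JG-98 were chosen after seeing the data.

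Per-library values are given, in each role, for the genes with the largest and the smallest log2 difference between the untreated lines, in the first 4 roles also for the one with the highest level per length, for every gene called under JG-98, and for the 3 with the largest replicate difference. For BIRC5, CDCA8 and CCNA2 they are given in NeuT only. From each other list at most the 2 largest and the 2 smallest differences are named. The members, the gene lists and the tests were chosen with earlier results of these data known. Genes named because only a few passed a count, such as the 5 at an unadjusted p in Empty, the 3 higher in the interaction, NFYC and those called in an alternative, were chosen after their values were seen. Replicates with the same number were not treated as pairs, because their deviations correlated over 9672 genes at -0.102 to 0.246 across the 6 pairs of groups and the labels name no shared source.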

Additional observations from a re-analysis of the deposited data

How the results depend on the processing

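The lower levels in NeuT held under every alternative, with 41 of 42 genes called lower without treatment in all of them and 41 or 40 under JG-98, the 40 without replicate 1 of Empty under JG-98 and replicate 2 of NeuT under JG-98 together. The response to JG-98 in Empty, 0 genes (60 of all 17693), became 1 without the filter on low counts (282 of all 31967). It was also 1 with only the libraries compared (205 of all 16813), and the gene was MKI67 in both. Leaving out 1 library moved the median log2 change in Empty from -0.039 to values of -0.057 to -0.031. The response in NeuT, 9 genes, became 1 with only the libraries compared, 3 at an adjusted p under 0.01, and 0 to 21 leaving out 1 library; DESeq2 gave 12, limma-voom 7 and the fit without those 2 libraries 7. The interaction, 0 genes, became 1 (CDC20) without the filter and 0 to 13 leaving out 1 library, the 13 without replicate 1 of NeuT under JG-98. The mean of both lines, 7 genes (702 of all 17693), became 11 without the filter (1142 of all 31967) and 2 at an adjusted p under 0.01 (300 of all 17693). With the crossed block it was 11 (928 of all 17693). That block swapped the replicate numbers of untreated NeuT and also called MAD2L1 in NeuT. Leaving out 1 library moved the median log2 change of the mean from -0.09 to values of -0.121 to -0.049. With the replicate block the counts were 41 and 41 between the lines, 0 in Empty, 11 in NeuT, 0 for the interaction and 8 for the mean. Over all 17693 genes the same counts were 7497, 7451, 66, 593, 1 and 780. Single genes were followed through the alternatives for 18 genes between the lines and 10 genes under JG-98. Among these, directions turned for values near 0 that were not called: NUSAP1 under JG-98 (-0.44 to 0.69 leaving out 1 library, 0.042 with the crossed block, and 0.24 without replicate 2 of NeuT under JG-98), PLK1 in Empty (-0.003 to 0.04, and -0.003 without the 2 libraries) and CDCA8 in Empty (-0.053 to 0.004). The cause of these changes was not tested. Counts of 5 to 17 limit NUSAP1.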
